A study of Mus musculus with 4 samples.

Results

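Kinesins are motor proteins that hydrolyse ATP to move along microtubules or, in some subfamilies, to take microtubule ends apart. In the testis they serve the spindles of dividing spermatogonia and spermatocytes, the manchette and flagellum of spermatids, and the movement of vesicles and organelles in germ cells and somatic cells alike. Kinesin light chains do not move by themselves: they join KIF5 heavy chains to cargo. The genes described here are the 47 mouse kinesin motor and light chain genes, found by matching each symbol to its Ensembl identifier in the table of 57010 identifiers. All 47 were in the table and 45 passed the filter on low counts. By known role they were placed in 16 spindle and division kinesins, 9 flagellar and ciliary kinesins, 14 transport kinesins, 4 light chains and 4 others.

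Whole testis RNA was compared between 2 BUS+ULA libraries and 2 BUS libraries. The mice were male ICR animals, 8 weeks old at purchase. All of them received busulfan (BUS), an alkylating agent that depletes germ cells, as a single intraperitoneal injection of 30 mg/kg dissolved in 5% DMSO. From 2 weeks later the BUS+ULA mice were gavaged daily for 4 weeks with 50 mg/kg of the plant triterpenoid ursolic acid (ULA) in 5% DMSO and corn oil, and the BUS mice with that vehicle. The normal mice and the lower ULA doses were not analysed here, so no untreated level is given. The paper calls the 2 libraries of a group biological replicates, and which animals gave them is not stated. The p-values measure the spread between these libraries.

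The BUS+ULA libraries held 16312898 and 15078828 counts, and the BUS libraries 18147335 and 18216380. ENSMUSG00000119584, an identifier that could not be named from the annotation used, made up 7.88 and 18.5% of all counts in the BUS+ULA libraries, against 0.004 and 0.001% in the BUS libraries. Lars2 made up 0.714 and 1.31% in BUS+ULA, against 0.003 and 0.002% in BUS. Protein-coding genes held 87.4 and 76.9% of counts in BUS+ULA, against 96.9 and 96.3% in BUS. The libraries thus differed by group in the make-up of their counts, and the cause was not tested. All 8 elongating spermatid markers and all 8 Sertoli cell markers had counts in every library, as testis should, but the groups differed in their levels. Elongating spermatid markers, 7 of 8 of which rose, summed to 8281 and 12804 CPM (counts relative to the TMM-scaled library size) in BUS+ULA, against 3001 and 4223 CPM in BUS. Sertoli cell markers, 7 of 8 of which fell, summed to 1508 and 914 CPM in BUS+ULA, against 4933 and 2499 CPM in BUS. Most of these sums was Clu, with 1220 and 717 CPM in BUS+ULA, against 3932 and 1973 CPM in BUS. Leydig cell markers, 8 of 8 of which fell, summed to 1242.5 and 733 CPM in BUS+ULA, against 8306 and 5717 CPM in BUS. Spermatogonia markers, 4 of 7 of which fell, summed to 153 and 116 CPM in BUS+ULA, against 321 and 284 CPM in BUS. BUS replicate 1 stood apart from BUS replicate 2 with lower sums of spermatocyte and spermatid markers and higher sums of Sertoli and Leydig cell markers. In bulk tissue, fewer cells of a type and less RNA per cell cannot be told apart.

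Of the 45 kinesin genes tested, 5 rose and 7 fell with ULA (adjusted p under 0.05 from edgeR's quasi-likelihood test). Those shares, 11.1 and 15.6%, lie near the background of all 23023 genes tested, of which 11.8% rose and 15.3% fell. By this call rule the family as a whole did not stand out. Other call rules and settings, given at the end, moved the counts. In this fit the genes past the test split by role. All 5 that rose belonged to the spindle list (Kif2c, Cenpe and Kif15) or to the flagellar and ciliary list (Kif6 and Kif24). The 7 that fell were 4 transport kinesins (Kif1c, Kif3c, Kif5a and Kifc2), 2 light chains (Klc1 and Klc4) and Kif26a. Of the spindle list 18.8% rose and of the flagellar and ciliary list 22.2%, against 11.8% of all genes. Of the transport list 28.6% fell and of the 4 light chains 50.0%, against 15.3% of all genes. With an offset for GC content and length, described below, 1 transport kinesin and 1 light chain were higher and 0 light chains lower. Both BUS+ULA libraries lay above both BUS libraries for 24 of the 45 genes (53.3%), where 37.9% of all genes did so. They lay below both for 14 (31.1%), where 37.2% of all genes did so. The median log2 fold change, BUS+ULA over BUS, was 0.63 for the spindle list, 0.59 for the flagellar and ciliary list, -0.57 for the transport list and -0.67 for the light chains, against 0.02 over all genes tested. The difference between role lists was not tested, since members of a list are not replicates. The number of kinesin genes past the test moved with the library left out, as did that of all genes. When each library was left out in turn, the spindle median lay between 0.36 and 0.84. That of the flagellar and ciliary list lay between 0.35 and 0.89. The transport median lay between -0.84 and -0.30 and that of the light chains between -0.84 and -0.51. Over all genes tested, the median in these fits was 0.00 to 0.08.

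**Figure D1:**
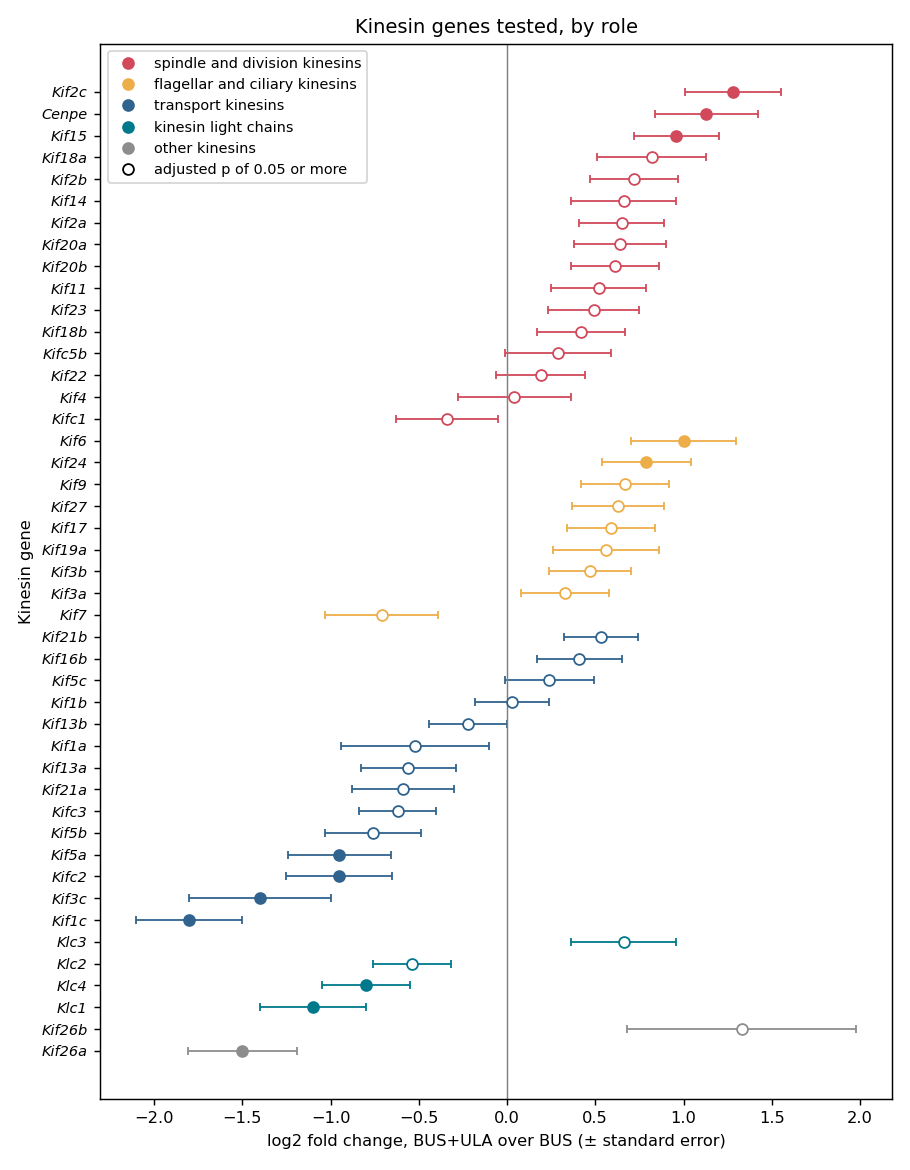
Log2 fold change of BUS+ULA over BUS (horizontal axis, with standard error) for the 45 kinesin genes tested, grouped by role, with filled points past an adjusted p of 0.05. Of 16 spindle kinesins 15 lie right of 0, and of 14 transport kinesins 10 lie left of it.

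The promoters of the genes that passed the test are shown because 5 motifs known for cell cycle, ciliary or meiotic genes were searched in them. RefSeq promoter windows (GRCm38.p6, 250 bases before to 50 after the start) were matched for 37 of the 47 genes and for 10 of the 12 that passed. The motifs, read on both strands, were CCAAT (bound by NF-Y), TTTGAA or TTCGAA (the cell cycle homology region of mitotic genes), TGACGTCA (the cAMP response element, bound by CREB and CREM), AACNGTT (bound by MYB proteins) and GTTGCCA (part of the RFX motif of ciliary genes). Each line gives the 120 bases before the start, 5′ to 3′ on the gene's strand, with motif letters in capitals. Kif11 and Kif22, which did not pass the test, were added after the motifs were seen because each holds CCAAT and the cell cycle motif close to the start.
Kif2c, chr4:117178773-117178892, minus strand: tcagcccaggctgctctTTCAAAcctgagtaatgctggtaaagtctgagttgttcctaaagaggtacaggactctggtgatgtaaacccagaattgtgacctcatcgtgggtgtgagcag
Kif15, chr9:122950961-122951080, plus strand: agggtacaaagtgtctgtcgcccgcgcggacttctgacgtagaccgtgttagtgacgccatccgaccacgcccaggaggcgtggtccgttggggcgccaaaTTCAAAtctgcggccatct
Cenpe, chr3:135212443-135212562, plus strand: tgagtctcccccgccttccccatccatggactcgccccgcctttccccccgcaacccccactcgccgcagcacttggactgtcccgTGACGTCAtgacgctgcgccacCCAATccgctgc
Kif11, chr19:37376262-37376381, plus strand: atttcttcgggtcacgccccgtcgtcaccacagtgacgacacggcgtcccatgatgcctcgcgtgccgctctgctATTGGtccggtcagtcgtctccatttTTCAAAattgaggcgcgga
Kif22, chr7:127042421-127042540, minus strand: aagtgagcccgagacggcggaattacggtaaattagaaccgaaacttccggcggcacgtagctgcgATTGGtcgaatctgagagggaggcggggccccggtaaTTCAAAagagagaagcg
Kif6, chr17:49615052-49615171, plus strand: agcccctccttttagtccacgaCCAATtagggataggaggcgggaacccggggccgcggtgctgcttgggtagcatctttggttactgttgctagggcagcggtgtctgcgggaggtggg
Kif24, chr4:41464849-41464968, minus strand: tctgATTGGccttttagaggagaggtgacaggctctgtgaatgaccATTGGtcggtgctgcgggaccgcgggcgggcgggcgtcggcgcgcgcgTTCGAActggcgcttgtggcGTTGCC
Kif1c, chr11:70700428-70700547, plus strand: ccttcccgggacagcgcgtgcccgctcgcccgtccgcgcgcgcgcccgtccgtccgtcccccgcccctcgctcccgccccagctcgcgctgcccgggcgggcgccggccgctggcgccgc
Kif3c, chr12:3365012-3365131, plus strand: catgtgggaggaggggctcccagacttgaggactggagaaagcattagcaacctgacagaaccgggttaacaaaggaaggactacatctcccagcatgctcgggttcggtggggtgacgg
Klc1, chr12:111758748-111758867, plus strand: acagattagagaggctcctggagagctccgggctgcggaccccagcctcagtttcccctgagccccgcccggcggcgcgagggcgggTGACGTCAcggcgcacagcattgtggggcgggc
Klc4, chr17:46646081-46646200, minus strand: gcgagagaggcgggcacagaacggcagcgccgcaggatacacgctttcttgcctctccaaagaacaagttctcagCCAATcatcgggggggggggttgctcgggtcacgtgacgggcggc
Kif26a, chr12:112146088-112146207, plus strand: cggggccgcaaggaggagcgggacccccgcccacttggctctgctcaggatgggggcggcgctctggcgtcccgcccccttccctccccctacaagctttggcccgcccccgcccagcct

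The Kif24 stretch ends inside a GTTGCCA match whose last base is the start itself. TTTGAA or TTCGAA was found in 11 of 15 spindle kinesin windows, 2 of 8 flagellar and ciliary windows, 1 of 8 transport windows and 0 of 3 light chain windows, against 21.7% of the 27025 genes in the table. CCAAT was found in 10 of 15 spindle windows, 5 of 8 flagellar and ciliary windows, 1 of 8 transport windows and 2 of 3 light chain windows, against 41.1% of all genes. GTTGCCA was in 3 spindle, 2 flagellar and ciliary and 1 transport window (5.02% of all genes). TGACGTCA was in 5 of the 37 windows (2.03% of all genes) and AACNGTT in 1, that of Kif14 (5.01% of all genes). Presence of a motif did not sort genes by the test, because Kif11, Kif22, Kif23 and Kif4 hold both CCAAT and the cell cycle motif and did not pass, while Cenpe passed without TTTGAA or TTCGAA. The windows of Kif1c, Kif3c and Kif26a held none of the 5 motifs. A match is only a match of letters.

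Kif2c encodes the kinesin that takes microtubule ends apart at centromeres and corrects wrongly attached chromosomes, and it was the spindle member with the largest change. Kif2c (chr4:117159639-117182639, all gene positions from GENCODE M21 on GRCm38) had 3999 and 4171 counts, or 242 and 331 CPM, in BUS+ULA, against 1853 and 2813 counts, or 97.5 and 138 CPM, in BUS. The lower BUS+ULA library lay well above the higher BUS library, and the log2 fold change was 1.28 (standard error, SE, 0.27, adjusted p = 0.013). The RefSeq start used for its printed promoter lies inside this gene model, which begins farther upstream. Cenpe, the motor that carries chromosomes to the spindle equator (chr3:135212537-135273611), had 117 and 122 CPM in BUS+ULA, against 39.5 and 69.8 CPM in BUS. Its groups did not overlap, although BUS replicate 2 lay closer to the BUS+ULA level than BUS replicate 1 did, and the log2 fold change was 1.13 (standard error 0.29, adjusted p = 0.023). Kif15, which helps to keep the spindle bipolar (chr9:122951046-123018733), had 68.5 and 77.8 CPM in BUS+ULA, against 32.9 and 42.4 CPM in BUS. The log2 fold change was 0.96 (standard error 0.24, adjusted p = 0.0214).

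The most abundant kinesin per exon length did not pass the test. Kif2b, a relative of Kif2c that acts on kinetochore microtubules and is encoded by a single exon (chr11:91575315-91577558), averaged 277 CPM per kilobase of exon in BUS+ULA and 168 CPM per kilobase in BUS, the first of all 47 genes in the mean over the 4 libraries. It had 566 and 675 CPM in BUS+ULA, against 345 and 408 CPM in BUS, with no overlap, a log2 fold change of 0.72 (standard error 0.25) and an adjusted p of 0.0557. Kif2a, which acts at spindle poles, had 212 and 229.6 CPM in BUS+ULA, against 119 and 163 CPM in BUS (log2 fold change 0.65, adjusted p = 0.0701). Kif20a, needed for cytokinesis, had 81.4 and 95.9 CPM in BUS+ULA, against 45.5 and 68.2 CPM in BUS (log2 fold change 0.64, adjusted p = 0.09). Reads of Kif2a and Kif20a may not be fully separable from those of genes on the other strand, since Dimt1 overlaps 19.2% of Kif2a exon bases and Cdc23 overlaps 29.3% of Kif20a exon bases.

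The other 10 spindle kinesins, among them Kif11, which pushes the spindle poles apart, and Kif18a, which damps chromosome movements, did not pass. Their log2 fold changes lay between -0.34 and 0.82. The highest was that of Kif18a, with 21.5 and 27.7 CPM in BUS+ULA, against 10.8 and 16.9 CPM in BUS (adjusted p = 0.0738). The only negative value of the list was that of Kifc1, a motor that walks to the minus end and focuses spindle poles, with 9.32 and 9.35 CPM in BUS+ULA, against 11.2 and 12.5 CPM in BUS (log2 fold change -0.34, adjusted p = 0.382). Kifc1 shares 38.6% of its 50-base stretches with its near copy Kifc5b, so that the counts of both are uncertain. Kifc5b had 15.1 and 16.0 CPM in BUS+ULA, against 10.2 and 15.2 CPM in BUS, where the groups overlapped. In sum the spindle list held 1570.5 and 1847 CPM in BUS+ULA, against 864 and 1148 CPM in BUS. Beside it, the 8 spermatocyte markers, of which none passed, summed to 1336 and 1144 CPM in BUS+ULA, against 792 and 1064 CPM in BUS, and the ratio of the sums was 1.18 and 1.61 in BUS+ULA, against 1.09 and 1.08 in BUS. The spermatogonia markers given above were lower in BUS+ULA (median log2 fold change -1.19), on the other side from the spindle list. The part of germ cell content in the change was not tested.

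Of 25 genes that work with kinesins at kinetochores and the central spindle, 1 rose, 1 fell and 23 did not pass (median log2 fold change 0.40). These shares, 4.0 and 4.0%, were below the 11.8 and 15.3% of all genes tested. Kntc1, which recruits dynein to kinetochores, had 58.8 and 62.9 CPM in BUS+ULA, against 28.0 and 41.3 CPM in BUS, a log2 fold change of 0.81 (adjusted p = 0.0448). Zwint, another kinetochore gene, had 75.1 and 50.6 CPM in BUS+ULA, against 131 and 101 CPM in BUS, a log2 fold change of -0.89 (adjusted p = 0.0378).

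**Figure D2:**
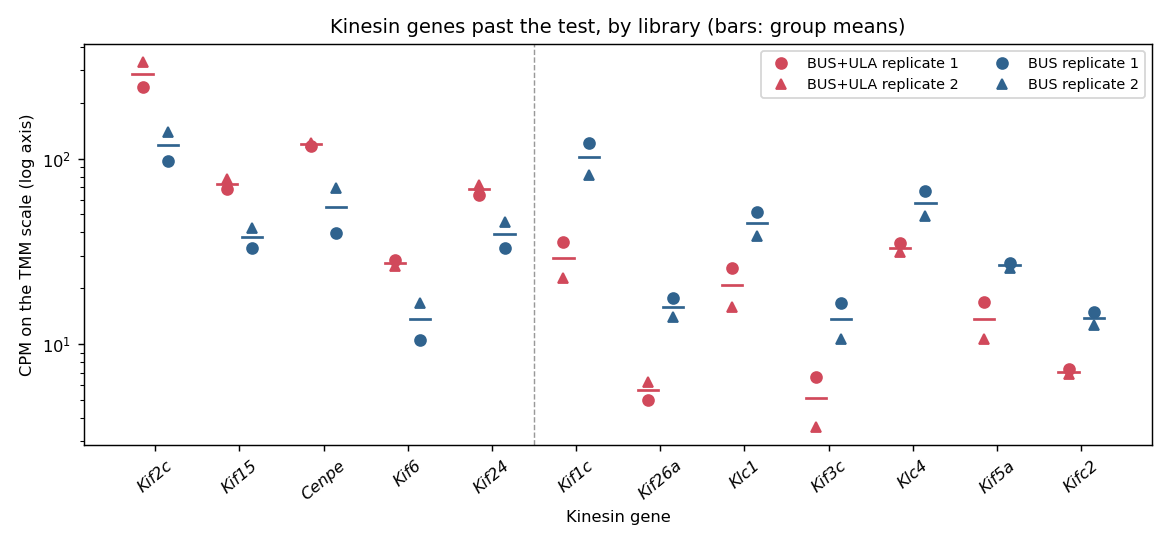
CPM on the TMM scale (log axis) of the 12 kinesin genes past the test in each library, with BUS+ULA left of BUS and bars at group means. The 5 genes left of the dashed line are higher in both BUS+ULA libraries and the 7 to its right lower, with no overlap between groups in any of them. The genes were picked by the test on these same libraries, so this separation is no further support. Of all genes tested, 37.9% lay above and 37.2% below in both BUS+ULA libraries.

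Among flagellar and ciliary kinesins, Kif6 and Kif24 rose. Kif6, which in mice is needed for motile cilia of the brain ventricles (chr17:49615136-49909847), had 467 and 331 counts, or 28.3 and 26.2 CPM, in BUS+ULA, against 200 and 340 counts, or 10.5 and 16.7 CPM, in BUS. The log2 fold change was 1.00 (standard error 0.30, adjusted p = 0.0377). Kif24, a microtubule depolymerase that holds back the assembly of primary cilia together with CP110 (chr4:41390745-41464887), had 63.9 and 72.4 CPM in BUS+ULA, against 33.1 and 45.6 CPM in BUS. The log2 fold change was 0.79 (standard error 0.25, adjusted p = 0.0426). Both genes are low for this list: per kilobase of exon, Kif24 averaged 8.50 CPM in BUS+ULA and 4.91 CPM in BUS, and Kif6 averaged 4.53 and 2.27 CPM.

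The abundant members of this list were higher in both BUS+ULA libraries than in both BUS libraries without passing the test. Kif9, needed for the beat of the mouse sperm flagellum, had 330.5 and 394 CPM in BUS+ULA, against 192 and 263 CPM in BUS (log2 fold change 0.67, adjusted p = 0.0733). Kif17, a motor of ciliary transport that in mouse spermatids also moves the CREM coactivator Fhl5, had 314 and 413 CPM in BUS+ULA, against 212 and 272 CPM in BUS (log2 fold change 0.59, adjusted p = 0.108). Kif27, a relative of Kif7 that in mice takes part in building motile cilia, had 316 and 374 CPM in BUS+ULA, against 180.4 and 267 CPM in BUS (log2 fold change 0.63, adjusted p = 0.0996). Together with Kif2b these are the 4 most abundant kinesins per exon length. Kif3b, which pairs with Kif3a as the motor of intraflagellar transport, had 269 and 303 CPM in BUS+ULA, against 187 and 227 CPM in BUS (log2 fold change 0.47, adjusted p = 0.149). For Kif3a the groups overlapped (log2 fold change 0.33). Kif19a, which limits the length of cilia, had a log2 fold change of 0.56. Kif7, a regulator of hedgehog signalling at the tip of primary cilia, was the exception, with 6.78 and 4.99 CPM in BUS+ULA, against 9.26 and 10.1 CPM in BUS (log2 fold change -0.71, adjusted p = 0.123). Other genes on the opposite strand overlap 20.3% of its exon bases.

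In sum the flagellar and ciliary list held 1449 and 1704 CPM in BUS+ULA, against 899 and 1208.5 CPM in BUS. The 6 round spermatid markers, of which 2 rose, summed to 832 and 873 CPM in BUS+ULA, against 487 and 652 CPM in BUS. The ratio of the list to these markers was 1.74 and 1.95 in BUS+ULA, against 1.85 and 1.85 in BUS, so the groups overlapped in it. Of 14 ciliary partner genes, 3 rose, 3 fell and 8 did not pass (median log2 fold change 0.26). That was 21.4% each way, against 11.8% higher and 15.3% lower of all genes tested. The 3 that rose were Hydin, a protein of the axoneme's central pair (log2 fold change 1.70, adjusted p = 0.0106), Dync2h1, the dynein that returns intraflagellar trains (1.60, adjusted p = 0.00669), and Fhl5 (1.31, adjusted p = 0.00839). The 3 that fell, named after their values were seen, were the hedgehog pathway genes Smo (-1.73), Gli1 (-1.70) and Ptch1 (-1.57). The other genes of this pathway in the list did not pass and had values on both sides of 0, with log2 fold changes of 0.46 for Sufu, 0.18 for Stk36, 0.01 for Gli3 and -0.37 for Gli2.

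**Figure D3:**
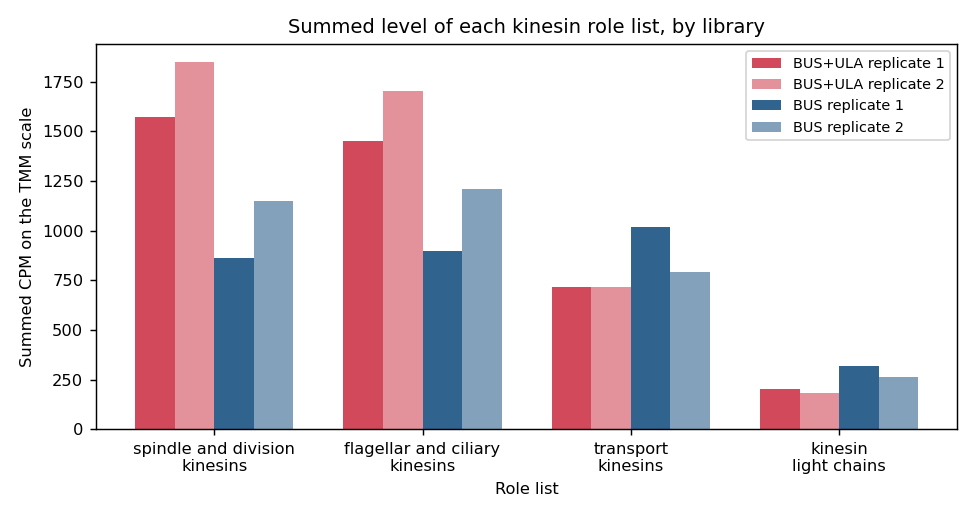
Summed CPM on the TMM scale of 4 kinesin role lists in each library, with BUS+ULA left of BUS. The spindle list reaches 1570.5 and 1847 CPM in BUS+ULA, against 864 and 1148 CPM in BUS, while the transport list lies at 717 and 718 CPM in BUS+ULA, against 1019.6 and 789 CPM in BUS.

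Of the 14 transport kinesins 4 fell (28.6%, against 15.3% of all genes tested) and none rose (against 11.8% of all genes). Kif1c, which moves vesicles between Golgi and endoplasmic reticulum (chr11:70700548-70731964), had 583 and 287 counts, or 35.3 and 22.8 CPM, in BUS+ULA, against 2305 and 1659 counts, or 121 and 81.7 CPM, in BUS. It had the largest fall of the family, at -1.80 on the log2 scale (SE 0.30, adjusted p = 0.00686), and was the only kinesin past the test whichever library was left out. Kif3c, a neuronal relative of Kif3b (chr12:3365132-3406494), had 6.66 and 3.57 CPM in BUS+ULA, against 16.6 and 10.6 CPM in BUS (log2 fold change -1.40, SE 0.40, adjusted p = 0.0321). Genes on the other strand overlap 40.7% of Kif3c exon bases, so its counts are uncertain. Kif5a, a KIF5 heavy chain best known from neurons (chr10:127225696-127263348), had 16.8 and 10.7 CPM in BUS+ULA, against 27.5 and 25.8 CPM in BUS (log2 fold change -0.95, SE 0.29, adjusted p = 0.0419). Kifc2, a motor of dendritic transport (chr15:76659858-76668196), had 7.32 and 6.90 CPM in BUS+ULA, against 14.9 and 12.7 CPM in BUS (log2 fold change -0.95, SE 0.30, adjusted p = 0.0427).

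The most abundant transport kinesin per exon length was Kifc3, a minus-end motor of epithelial junctions and apical transport, with 57.7 and 58.9 CPM in BUS+ULA, against 95.8 and 82.9 CPM in BUS (log2 fold change -0.62, adjusted p = 0.0624). Kif5b, the KIF5 heavy chain of most tissues, had 55.2 and 43.9 CPM in BUS+ULA, against 101.8 and 66.7 CPM in BUS (log2 fold change -0.76, adjusted p = 0.0618). Both were lower in each BUS+ULA library than in each BUS library without passing. Kif21a, an axonal motor that restrains microtubule growth, had 78.2 and 63.4 CPM in BUS+ULA, against 135 and 77.8 CPM in BUS (adjusted p = 0.148), and BUS replicate 2 lay at the BUS+ULA level. Kif1a, the motor of synaptic vesicle precursors, was likewise highest in BUS replicate 1, with 39.7 and 66.3 CPM in BUS+ULA, against 109 and 42.6 CPM in BUS. Kif1b, its relative, had 129 and 134 CPM in BUS+ULA, against 129 and 128 CPM in BUS. Kif21b, Kif16b and Kif5c had positive values (log2 fold changes 0.53, 0.41 and 0.24), and Kif13a and Kif13b, which carry endosomal and membrane cargo, negative ones (-0.56 and -0.22), none past the test.

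Of the light chains Klc1 and Klc4 fell. Klc1 (chr12:111758849-111807844) had 25.8 and 15.9 CPM in BUS+ULA, against 51.6 and 38.3 CPM in BUS (log2 fold change -1.10, SE 0.30, adjusted p = 0.0283). Klc4 (chr17:46630624-46646022) had 34.8 and 31.2 CPM in BUS+ULA, against 66.4 and 49.0 CPM in BUS (log2 fold change -0.80, SE 0.25, adjusted p = 0.0412). Klc2, the most abundant light chain per exon length, had 128 and 114 CPM in BUS+ULA, against 189 and 162 CPM in BUS (log2 fold change -0.54, adjusted p = 0.094). Klc3, which in rodents lies in the sperm tail, went the other way, with 15.8 and 22.4 CPM in BUS+ULA, against 10.9 and 13.2 CPM in BUS (log2 fold change 0.66, adjusted p = 0.12), and Ercc2 on the other strand overlaps 28.1% of its exon bases. The transport list summed to 717 and 718 CPM in BUS+ULA, against 1019.6 and 789 CPM in BUS, and the light chains to 204 and 183 CPM in BUS+ULA, against 318 and 263 CPM in BUS. The ratio of the transport list to the Sertoli cell markers given above was 0.476 and 0.786 in BUS+ULA, against 0.207 and 0.316 in BUS. Most of the marker sum was Clu, so this ratio mainly follows that gene. Whether somatic cell content plays a part in the lower transport kinesins was not tested.

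Of 18 measured cargo adaptors and partners, 1 rose, 5 fell and 12 did not pass (median log2 fold change -0.15). These shares were 5.56% higher and 27.8% lower, against 11.8 and 15.3% of all genes tested. Clstn1, which links light chains to vesicles, had 68.9 and 55.3 CPM in BUS+ULA, against 221 and 114 CPM in BUS, a log2 fold change of -1.43 (adjusted p = 0.0155). Sybu, a syntaxin-linking adaptor of KIF5, had a log2 fold change of -1.49 (adjusted p = 0.0234). Kifap3, the subunit that completes the Kif3a and Kif3b motor, rose, with 291.5 and 314 CPM in BUS+ULA, against 148 and 188 CPM in BUS (0.85, adjusted p = 0.0292).

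Among the other kinesins Kif26a fell, Kif26b was low and did not pass, and Kif12 and Kif28 were at or near the limit of detection. Kif26a, which lacks motor activity and in mice restrains GDNF-Ret signalling in enteric neurons (chr12:112146208-112181747), had 5.02 and 6.26 CPM in BUS+ULA, against 17.8 and 14.0 CPM in BUS (log2 fold change -1.50, SE 0.31, adjusted p = 0.0129). Kif26b had 35 and 31 counts in BUS+ULA, against 5 and 31 counts in BUS, where BUS replicate 1 alone was low (log2 fold change 1.33, adjusted p = 0.147). Kif28 had 7 and 3 counts in BUS+ULA, against 12 and 3 counts in BUS, and was not tested. Kif12 had 0 counts in every library, which allows up to 0.182 and 0.238 CPM in BUS+ULA and up to 0.158 and 0.148 CPM in BUS (3 counts, counting error only).

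**Figure D4:**
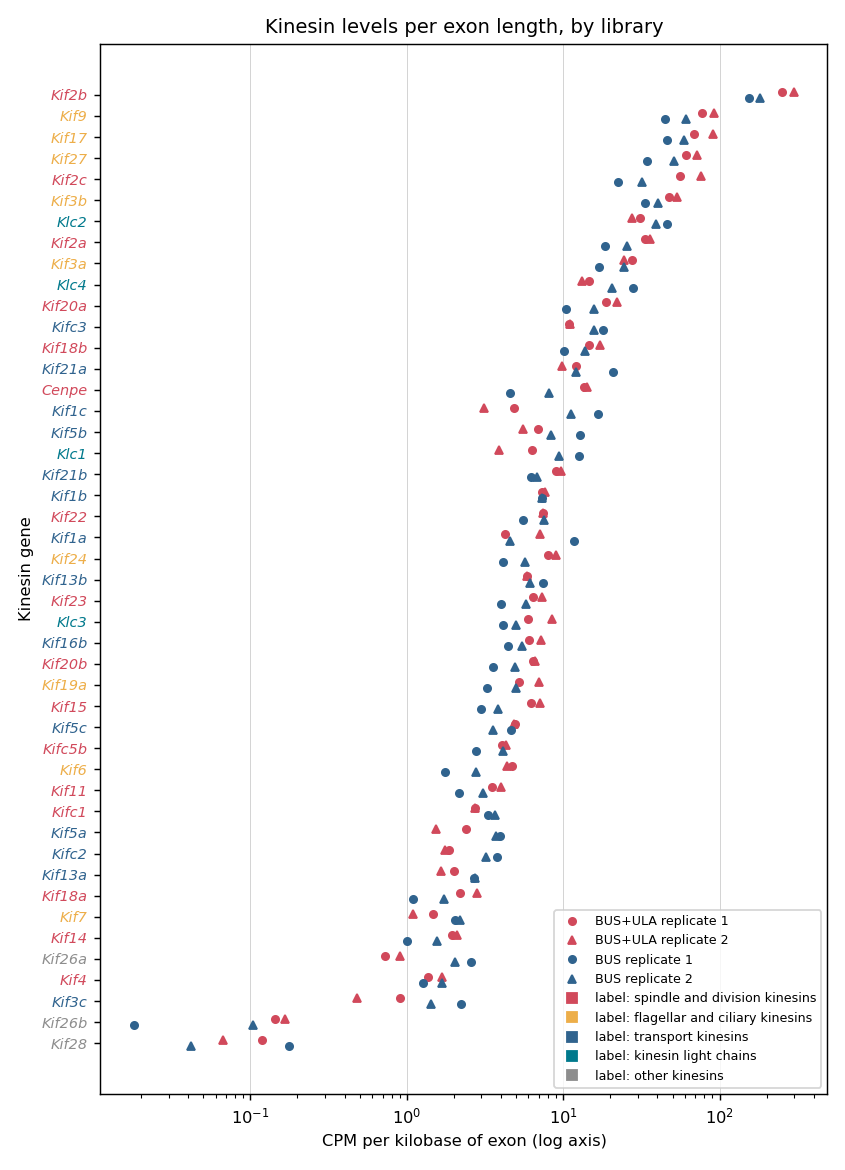
Level of 46 kinesin genes in CPM per kilobase of exon (log axis) in each library, in the order of the mean over the 4 libraries, with gene labels coloured by role. Kif2b leads with a mean of 277 in BUS+ULA and 168 in BUS, followed by the flagellar and ciliary genes Kif9, Kif17 and Kif27.

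As a share of all kinesin message per exon length, the spindle list took 49.5 and 51.4% in BUS+ULA, against 38.0 and 42.8% in BUS. Much of this was Kif2b, which did not pass the test. It held 252 and 301 of the list's 430 and 512 CPM per kilobase in BUS+ULA. In BUS it held 154 and 182 of 248 and 314 CPM per kilobase. The flagellar and ciliary list took 34.6 and 35.4% in BUS+ULA, against 28.7 and 34.3% in BUS. The transport list took 9.12 and 7.75% in BUS+ULA, against 18.9 and 12.5% in BUS, and the light chains 6.66 and 5.32% in BUS+ULA, against 13.9 and 10.1% in BUS. The groups did not overlap in any of these shares, but for the flagellar and ciliary list they came as close as 34.6 and 34.3%. Lack of overlap was common, since 37.9% of all genes tested lay above and 37.2% below in both BUS+ULA libraries. With 2 libraries against 2 a two-sided exact permutation test cannot give a p below 0.333. The shares of a library add up to a fixed total, so they are not separate results. BUS replicate 2 lay between BUS replicate 1 and the BUS+ULA libraries in each.

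The role lists differed in base composition, and a joint offset for GC content and length moved their values. The GC content of a gene's longest transcript had a median of 59.7% in the light chains and 52.5% in the transport list. It was 47.3% in the spindle list and 50.0% in the flagellar and ciliary list. When a smooth offset for GC content and length was fitted in each library, the transport median became -0.11 and that of the light chains 0.12, while the spindle median was 0.57 and the flagellar and ciliary median 0.80. GC content and length were not offset separately. The number of kinesin genes called became 8 higher and 2 lower, the lower ones being Kif1c and Kif5b. Among the higher ones, Kif17 (log2 fold change 1.52), Kif19a (1.49), Kif18b (0.94) and the transport kinesin Kif21b (1.13) had not passed without the offset. Of all 22444 genes tested under the offset, 1885 were higher and 2625 lower. Under the offset Kif5b had a log2 fold change of -0.93 (adjusted p = 0.0366). Of the 12 genes past the test without the offset, Kif2c, Kif6, Kif24 and Kif1c remained past it, and all 12 kept their sign. Kif1c had a log2 fold change of -1.19 under the offset, Kif26a -0.40 and Kifc2 -0.09. Among the light chains, Klc1 had -0.46 and Klc4 -0.16 under the offset, Klc2 had 0.40, and Klc3 was past the test at 1.57 (adjusted p = 0.0166).

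**Figure D5:**
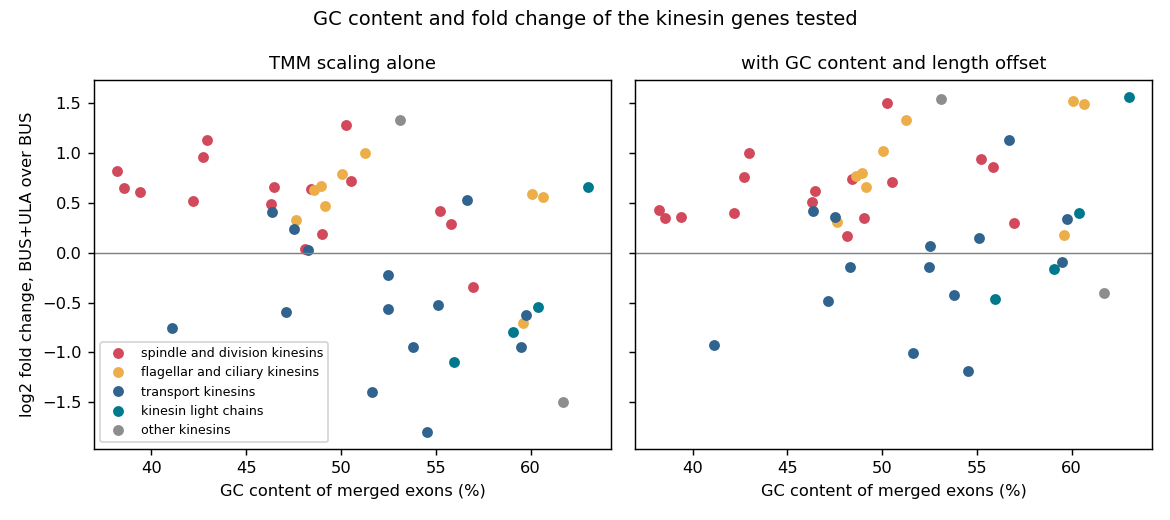
Log2 fold change of BUS+ULA over BUS against GC content for the 45 kinesin genes tested, coloured by role. TMM scaling alone is on the left, and an offset for GC content and length is added on the right. GC content is that of each gene's longest transcript, although the axis label names merged exons. Of the 4 light chains, Klc1, Klc2 and Klc4 lie below 0 in the left panel, and in the right one Klc1 is at -0.46, Klc4 at -0.16 and Klc2 at 0.40, while Klc3 lies above 0 in both.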

How the data were processed

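Testis RNA of 2 BUS+ULA and 2 BUS libraries was analysed, grouped by the labels' titles. The values deposited by the authors are raw gene counts. For their making, the paper lists Fastp, STAR, GRCm38 and FeatureCounts but the submitters' processing notes list RSEM 1.3.1, and this was not settled. The strand setting was not given in the sources used here. Symbols, positions, exon lengths and GC content come from GENCODE M21 (GRCm38), which has no entry for 4929 of 57010 identifiers, so the release used for counting was another one.

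The filter was filterByExpr (at least 10 counts, 15 in total). Scaling was by TMM. The groups were compared by edgeR 4.0.16 (quasi-likelihood test, R 4.3.3), and p-values were adjusted by Benjamini-Hochberg over 23023 genes. Positive log2 fold changes mean higher in BUS+ULA. Residual degrees of freedom numbered 2.

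Members and lists were chosen with earlier results of these data known. Values of each library are given for genes past the test and for the 4 highest per exon length of each role list, others by range or where singled out after their values were seen. Partner genes named passed the test and were among the 3 smallest p of their list, except where stated. Alternatives changed the scaling (RLE, upper-quartile, library size), the tool (DESeq2 1.42.0, or voom in limma 3.58.1), the filter, the genes tested, the libraries and the call rule (1.5-fold with unadjusted p), or added a replicate block or an offset for GC content and length (mgcv 1.9.3, 8 basis functions). Promoters are RefSeq's (GRCm38.p6).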

Additional observations from a re-analysis of the deposited data

How the results depend on the processing

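All 12 kinesin genes past the test kept their direction under every alternative. They were all still past it with RLE scaling, DESeq2, the replicate block, without BUS replicate 2 and without Lars2, Gm15564 and unnamed identifiers, and between 1 and 11 were under the others. Scaling moved the median of all genes to 0.31 with upper-quartile factors and to -0.20 with library size alone, against 0.02. Upper-quartile scaling gave 14 kinesins higher and 4 lower (9 spindle kinesins higher, 1 transport kinesin higher and 2 lower, 1 light chain higher and 1 lower). Of all genes it gave 4282 higher and 2364 lower. Library size alone gave 2 kinesins higher, with 0 flagellar and ciliary kinesins, and 9 lower, with 1877 of all genes higher and 5031 lower. With limma-voom 1 light chain was lower. Without a filter beyond 1 count, 1 flagellar and ciliary kinesin was higher and 7 transport kinesins were lower, and with at least 10 counts in every library 2 transport kinesins were lower. Protein-coding genes alone gave 3 kinesins lower (1 transport kinesin and 1 light chain), with 1475 of all genes higher and 2258 lower. The GC content and length offset gave 8 kinesins higher and 2 lower (4 flagellar and ciliary higher, 1 transport higher and 2 lower, 1 light chain higher and 0 lower). Of all genes, 1885 were higher and 2625 lower with this offset. Of the 45 kinesins tested, the 1.5-fold rule gave 13 higher (8 spindle, 5 flagellar and ciliary) and 9 lower (6 transport, 2 light chains, 1 other). Of all 23023 genes it gave 4464 higher and 5231 lower. The cause of these shifts was not tested.

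Deviations of same-numbered libraries correlated at 0.33 over 2 pairs, which does not show pairing. The replicate block gave 21 kinesins higher and 13 lower (11 spindle higher, 7 flagellar and ciliary higher and 1 lower, 1 transport higher and 8 lower, 1 light chain higher), with 5151 of all genes higher and 5901 lower. The offset with the replicate block gave 21 kinesins higher (9 spindle, 7 flagellar and ciliary, 2 transport, 2 light chains) and 5 lower (4 transport, 1 light chain). Of all genes 4946 were higher and 5530 lower, and in this fit Klc2 turned to 0.40 (edgeR adjusted p = 0.0463). Leaving out each library gave 0 to 22 kinesins higher and 1 to 12 lower, and 656 to 5556 of all genes higher and 714 to 6429 lower. By role this was 0 to 12 spindle, 0 to 7 flagellar and ciliary, 0 to 1 transport and 0 to 1 light chain genes higher, and 1 to 8 transport and 0 to 3 light chain genes lower. With 1 library left in a group, it is assumed to vary like the other group.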
